A study of Mus musculus with 12 samples.

Results

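Chromatin accessibility at 9 genes for chains of basement membrane proteins was followed in mouse hepatocyte preparations by ATAC-seq, in which a transposase cuts and tags open DNA. The genes were Col4a1, Col4a2, Col4a3, Col4a4 and Col4a6 for type IV collagen and Lama3, Lama5, Lamb1 and Lamc1 for laminin. Peaks that overlapped a gene's span, or lay within 20 kb of it, were joined over the 12 libraries and gave 238 regions out of 292665. Of these, 110 were kept in at least 3 libraries and were tested, among 138538 tested regions in all; the remaining 128 were kept in 1 or 2 libraries. The genes were chosen because regions at Col4a6 and Lama3 were among the largest differences between diets in floxed controls. That comparison is therefore described below without p-values. Its calls are listed as a description only, and nothing is read from their number.

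The 12 libraries came from 12 mice, 3 in each of 4 groups. Alb-Cre/FBXL5F/F mice carry Fbxl5 alleles flanked by loxP sites together with Cre under control of the albumin promoter, which acts in hepatocytes. They are called Fbxl5-deleted, and they were fed 0.1% DDC or a standard diet for 2 weeks. FBXL5F/F mice carry the same floxed alleles without Cre; they are called floxed controls and had the same diets. FBXL5 recognises the iron regulatory protein IRP2 for ubiquitin-dependent degradation, and DDC is a porphyrin-inducing compound that obstructs small bile ducts. Hepatocytes were obtained by collagenase perfusion, a preparation that may retain other liver cells, and the labels state no age. Without read counts in the lists, the deletion of Fbxl5 itself could not be checked.

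Type IV collagen is the network-forming collagen of basement membranes, built from triple-helical trimers of different chains, and laminins are cross-shaped trimers of an alpha, a beta and a gamma chain that bind cell-surface integrins and dystroglycan. The type IV collagen genes lie in head-to-head pairs, Col4a1 with Col4a2, Col4a3 with Col4a4 and Col4a5 with Col4a6, so that the members of a pair are transcribed away from each other from a common promoter stretch. In normal liver, basement membrane surrounds bile ducts and larger vessels, while the sinusoids lack a continuous one; sinusoidal endothelial and stellate cells are known sources of Col4a1 and Col4a2 there.

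Promoter windows from 250 bases before to 50 after the annotated start were in the RefSeq table (GRCm38.p6, the assembly of mm10) for 6 of the 9 genes. Those of the pair Col4a1 and Col4a2, of Col4a4, of Lama5 and of Lamb1 are shown because the peak lists bear on them in opposite ways: the first 4 were covered over all 300 bases by a region present in all 12 lists, and the Lamb1 window was touched by none. The windows are chr8:11312777-11313076 on the minus strand for Col4a1, chr8:11312555-11312854 on the plus strand for Col4a2, chr1:82586800-82587099 on the minus strand for Col4a4, chr2:180225810-180226109 on the minus strand for Lama5 and chr12:31265043-31265342 on the plus strand for Lamb1. Capitals mark matches to the letters GGGCGG (the core of an SP/KLF motif) or CCAAT (the CCAAT box), on either strand.
Col4a1: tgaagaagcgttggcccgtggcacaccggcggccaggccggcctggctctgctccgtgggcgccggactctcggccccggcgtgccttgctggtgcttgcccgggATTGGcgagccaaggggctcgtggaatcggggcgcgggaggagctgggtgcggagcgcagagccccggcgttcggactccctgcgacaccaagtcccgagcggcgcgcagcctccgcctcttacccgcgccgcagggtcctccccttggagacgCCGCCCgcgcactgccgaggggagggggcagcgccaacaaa
Col4a2: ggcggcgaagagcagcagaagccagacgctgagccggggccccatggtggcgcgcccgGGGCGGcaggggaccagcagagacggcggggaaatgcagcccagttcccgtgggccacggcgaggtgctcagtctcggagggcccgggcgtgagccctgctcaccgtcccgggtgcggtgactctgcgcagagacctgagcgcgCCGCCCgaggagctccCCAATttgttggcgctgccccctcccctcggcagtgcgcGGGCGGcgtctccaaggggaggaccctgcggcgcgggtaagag
Col4a4: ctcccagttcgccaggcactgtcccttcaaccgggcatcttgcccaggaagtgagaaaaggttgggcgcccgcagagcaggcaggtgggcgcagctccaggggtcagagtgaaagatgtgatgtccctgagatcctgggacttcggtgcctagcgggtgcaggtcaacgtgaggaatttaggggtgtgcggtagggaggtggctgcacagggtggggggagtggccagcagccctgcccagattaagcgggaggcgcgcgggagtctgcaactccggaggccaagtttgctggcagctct
Lama5: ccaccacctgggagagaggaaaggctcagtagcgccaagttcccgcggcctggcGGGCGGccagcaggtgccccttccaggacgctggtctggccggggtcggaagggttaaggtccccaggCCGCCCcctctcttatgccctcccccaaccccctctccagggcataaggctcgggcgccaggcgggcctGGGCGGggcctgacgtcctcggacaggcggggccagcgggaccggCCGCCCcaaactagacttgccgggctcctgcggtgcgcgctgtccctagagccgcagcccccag
Lamb1: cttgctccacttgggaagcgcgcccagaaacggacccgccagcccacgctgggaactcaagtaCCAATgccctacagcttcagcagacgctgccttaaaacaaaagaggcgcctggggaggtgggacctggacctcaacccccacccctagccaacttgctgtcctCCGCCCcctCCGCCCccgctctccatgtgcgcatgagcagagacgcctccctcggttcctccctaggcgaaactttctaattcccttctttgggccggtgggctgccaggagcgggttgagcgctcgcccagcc
The Col4a1 and Col4a2 windows run in opposite directions and share 78 bases, in which 1 GGGCGG match lies. Over a whole window, GGGCGG was found 1 time at Col4a1, 3 times at Col4a2, 0 times at Col4a4, 4 times at Lama5 and 2 times at Lamb1. Of 32851 RefSeq promoter windows of this length, 35.7% hold it and 37.4% hold CCAAT. The letters TGANTCA (AP-1, in 7.81% of all windows), ACATTCC (TEAD, in 3.85%) and the HNF1 motif (in 0.0609%) were found in none of the 6 windows on either strand. The Col4a6 window (GC content 48.3%) was met by a peak over 124 bases in 1 list. The adjoining window of Col4a5 lay wholly inside a region that was in all 12 lists. Coverage is by regions joined over libraries, and the peaks of a single library can be narrower than a window. At the Col4a5 window the widest peak in Fbxl5-deleted DDC library 1 was 296 bp. At the Col4a4 window it was 150 bp in Fbxl5-deleted standard-diet library 1. GC content was 74.0% at Col4a1, 73.7% at Col4a2, 63.3% at Col4a4, 72.7% at Lama5 and 63.7% at Lamb1, against a median of 52.7% over all windows.

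A region's value below is its rank by fold enrichment among the strongest 137034 peaks of its own library, expressed on the log2 scale of the mean fold enrichment distribution of the 12 libraries. On this scale the top 1% of peaks lie above 4.40, the top 10% above 3.69 and the median peak at 2.18. A region that was not among those peaks is called not kept and was set to the floor of 1.27, so a difference that involves such libraries rests in part on the floor. The lists held from 137034 to 262080 peaks. Libraries 1 and 3 of Fbxl5-deleted mice on the standard diet stood apart, holding 262080 and 260622 peaks. They had the fewest with a −log10 q of at least 5 (46949 and 56371, against 65943 to 86745 in the other 10). Called regions of the collagen and laminin genes that use them, and calls over all other basement membrane genes together, are also given without them. Other counts are given only with them. These include groups without overlap, unadjusted p-values in the genotype comparison on the standard diet, and calls by smaller gene list or marker list. Of the hepatocyte markers (Alb, Apoa1, Ttr, Cps1, Hnf4a and Cyp2e1), all 6 had tested regions. Of 109 such regions, 45 were in all 12 lists (41.3%, against 44.5% of all tested regions). For markers of other cell types this share ran from 38.2% (macrophage) to 65.4% (lymphocyte), so it does not set hepatocyte markers apart.

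The regions were spread unevenly over the genes. Lamc1 (chr1:153218922-153332786) had 24 tested regions, Col4a1 (chr8:11198423-11312889) and Lama3 (chr18:12333417-12583013) 19 each, Col4a2 (chr8:11312805-11449287) 16 and Col4a6 (chrX:141165403-141474095) 13. Col4a4 (chr1:82448419-82587034) had 9, Lama5 (chr2:180176373-180225904) 8, Col4a3 (chr1:82586921-82722059) 7 and Lamb1 (chr12:31265146-31329644) 4, with 9 regions counted for both genes of a collagen pair. Of the 110, 50 were in all 12 lists (45.5%, against 44.5% of all tested regions). Per library, from 88 to 91 of the 110 were kept in Fbxl5-deleted DDC and 75 to 85 in Fbxl5-deleted standard diet. In floxed controls 88 to 91 were kept on DDC and 79 to 82 on the standard diet. All tested regions leaned the same way. In Fbxl5-deleted preparations 2.5% of them were in 3 of 3 DDC lists and 0 of 3 standard-diet lists, against 0.64% for the reverse. In floxed controls these shares were 3.89% and 1.79%, so nothing is read from the counts among the 110.

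Each gene but Lamb1 had a tested region within 2 kb of a start, here called its start region. There were 6 of them, each in all 12 lists. Col4a1 and Col4a2 shared theirs, as did Col4a3 and Col4a4. The one named for Col4a6 lies over the start of Col4a5, and the Col4a6 promoter window itself was met by a peak in 1 list. Strand is not in the tables used for Col4a3, Lama3 and Lamc1, for which either gene end was taken as a possible start. The region shared by Col4a1 and Col4a2, the genes of the ubiquitous basement membrane collagen (8:11312054-11313714), had values of 2.83, 2.44 and 2.87 in Fbxl5-deleted DDC libraries and 2.99, 2.71 and 2.87 in Fbxl5-deleted standard-diet libraries. In floxed controls it had 2.62, 2.49 and 2.81 on DDC and 2.74, 2.77 and 3.03 on the standard diet. All 4 groups overlapped. The difference for DDC in Fbxl5-deleted preparations was −0.14 ± 0.21 (SE, adjusted p = 0.763).

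The region shared by Col4a3 and Col4a4 (1:82586505-82587548), whose chains form the collagen network of the glomerulus, varied more between Fbxl5-deleted mice. It had 1.91, 2.18 and 3.04 in Fbxl5-deleted DDC libraries and 1.43, 2.19 and 2.56 in Fbxl5-deleted standard-diet libraries. Floxed controls had 2.85, 2.84 and 2.99 on DDC and 2.75, 2.58 and 2.85 on the standard diet. On the standard diet every Fbxl5-deleted library was below every floxed control library, with the lowest in library 1, which stood apart. The genotype difference there was −0.67 ± 0.30 (adjusted p = 0.579), and −0.54 ± 0.36 (adjusted p = 1) without libraries 1 and 3 of the Fbxl5-deleted standard-diet group, so it did not pass the test either way.

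Lama5, for the laminin alpha chain widespread in adult basement membranes, showed the lowest adjusted p among the start regions. Its start region (2:180225392-180226313) had 2.77, 3.06 and 3.21 in Fbxl5-deleted DDC libraries, against 3.40, 3.60 and 3.61 in Fbxl5-deleted standard-diet libraries. The groups did not overlap, and the difference was −0.52 ± 0.18 (adjusted p = 0.119), short of the threshold. Floxed controls had 2.74, 3.03 and 3.21 on DDC and 3.19, 3.35 and 3.26 on the standard diet, which overlapped at the edge.

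The regions at the ends of Lama3 and Lamc1 and near the Col4a6 start were likewise in all lists. At Lamc1, for the gamma chain found in most laminins, the region at one end of the gene (1:153331945-153333689) averaged 2.86 ± 0.19 in Fbxl5-deleted DDC libraries and 3.02 ± 0.10 in Fbxl5-deleted standard-diet libraries (SD, n = 3 each). At Lama3, for an alpha chain of epithelial laminins, the region 113 bp inside the gene (18:12333530-12334529) was the strongest of the 6, ranking between the top 3.32% and the top 17.4% of peaks, and averaged 3.56 ± 0.21 in Fbxl5-deleted DDC libraries and 3.97 ± 0.13 in floxed control DDC libraries. The groups did not overlap, but the difference of −0.41 ± 0.14 did not pass the test (adjusted p = 0.60). The region nearest the Col4a6 start (X:141475067-141476289) lies 991 bp away over the start of Col4a5, its head-to-head partner. None of the 6 start regions passed the test in any of the 4 comparisons outside the floxed control diet comparison, for which no p-value is given.

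**Figure D1:**
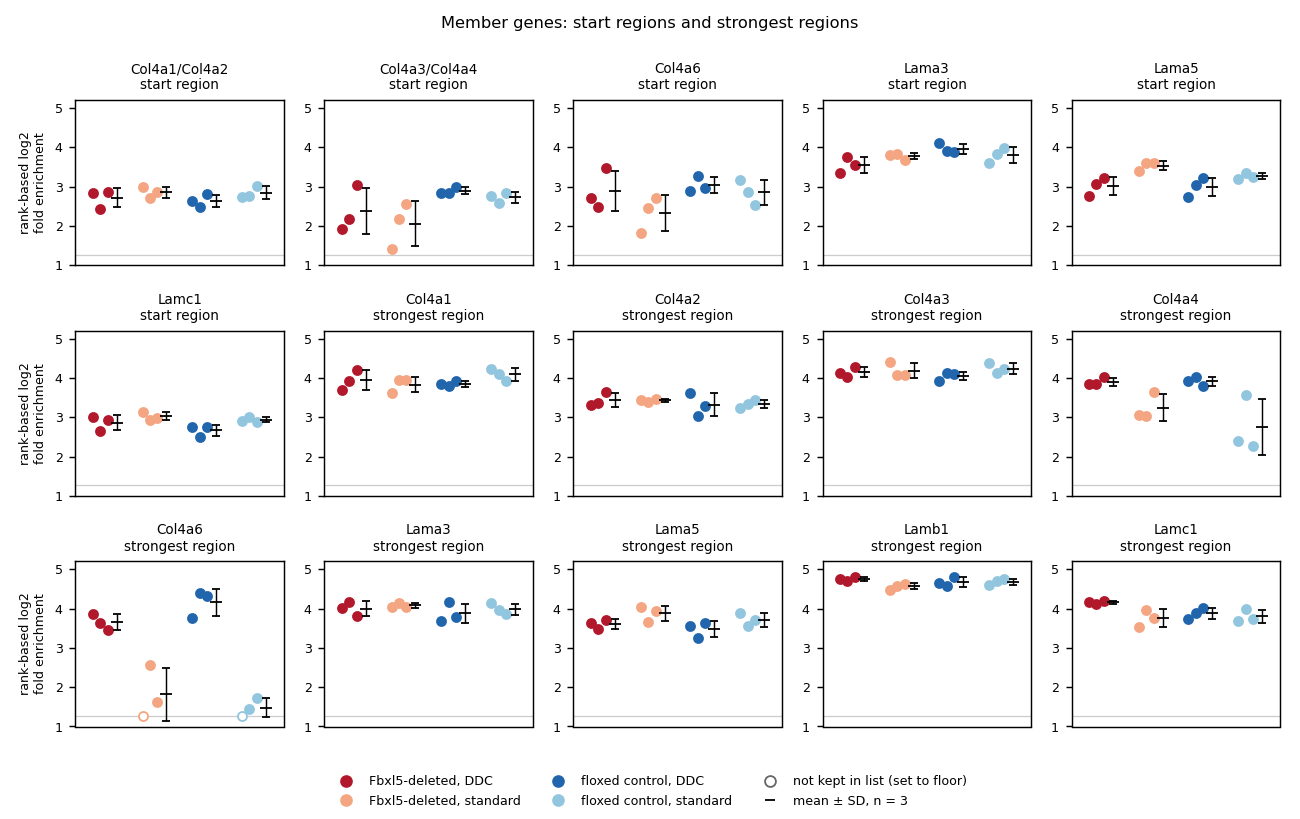
Values (rank-based log2 fold enrichment, vertical axis) in each library at the 6 start regions and at the strongest region of each gene, by group, with the mean ± SD (n = 3). Start regions lie within overlapping ranges or differ by less than 1 unit, the strongest Lamb1 region sits between 4.48 and 4.81 in all libraries, and the strongest Col4a6 region is high in both DDC groups.

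Lamb1, for the beta chain of the most widespread laminins, had no region within 2 kb of its start but the strongest region of the 9 genes. That region (12:31294361-31295069) lies inside the gene, 29068 bp from the start. It had 4.76, 4.71 and 4.80 in Fbxl5-deleted DDC libraries, 4.48, 4.57 and 4.64 in Fbxl5-deleted standard-diet libraries, 4.66, 4.57 and 4.81 in floxed control DDC libraries and 4.60, 4.70 and 4.75 in floxed control standard-diet libraries. In the authors' own fold enrichment it was 26.2-fold to 27.6-fold over background in Fbxl5-deleted DDC libraries and 18.1-fold to 24.7-fold in Fbxl5-deleted standard-diet libraries. It ranked within the top 0.615% of peaks in each library. Fbxl5-deleted DDC libraries were all above the Fbxl5-deleted standard-diet ones, by 0.19 ± 0.09, which did not pass the test (adjusted p = 0.248). Lamb1 had 4 tested regions, and none was called in any comparison.

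The strongest regions of Col4a1, Col4a2, Col4a3, Lama3, Lama5 and Lamc1 were also in all 12 lists. None of them passed the test in the 4 comparisons outside the floxed control diet comparison. Those of Col4a2, Col4a3 and Lama5 lie outside the genes, 8504, 2631 and 4316 bp away. They may belong to neighbouring genes, and which gene they serve was not tested. The strongest Col4a3 region (1:82724690-82725587), 2631 bp beyond a gene end, averaged 4.15 ± 0.13 in Fbxl5-deleted DDC libraries and 4.19 ± 0.19 in Fbxl5-deleted standard-diet libraries. The strongest Col4a1 region (8:11279241-11280094), inside the gene, averaged 3.94 ± 0.26 in Fbxl5-deleted DDC libraries and 3.83 ± 0.19 in Fbxl5-deleted standard-diet libraries. At Lamc1 the strongest region (1:153275397-153276086) had 4.16, 4.13 and 4.18 in Fbxl5-deleted DDC libraries, against 3.53, 3.97 and 3.77 in Fbxl5-deleted standard-diet libraries. These did not overlap, with a difference of 0.40 ± 0.13 (adjusted p = 0.117), short of the threshold, and of 0.18 ± 0.17 without Fbxl5-deleted standard-diet libraries 1 and 3.

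On DDC, 9 of the 110 tested regions were called in Fbxl5-deleted preparations (adjusted p under 0.05 in limma over all tested regions), 7 higher and 2 lower. Over all tested regions 3.17% were called, 2.43% higher and 0.741% lower; the shares among the 110 were 8.18%, 6.36% and 1.82%. The median difference was 0.04 over the 110 and 0.01 over all. The 7 that rose lay at Col4a6 (1), Lamc1 (3), Col4a2 (2) and Col4a1 (1), and both that fell lay in Lama3. Groups did not overlap, with DDC higher, at 19 regions (17.3%, against 10.1% of all), and with DDC lower at 10 (9.09%, against 8.19%). Without libraries 1 and 3 of the Fbxl5-deleted standard-diet group, which leaves 1 library that is assumed to vary like the others, 0 of the 110 regions were called by limma (0.853% of all regions were), and 20.9% of them had an unadjusted p under 0.05 (11.8% of all). The 9 differences kept their signs: for the 3 Lamc1 regions they were then 1.34, 1.12 and 0.92, for the 2 Col4a2 regions 1.37 and 1.20, for Col4a1 0.73, for Col4a6 1.08 and for the 2 Lama3 regions −1.01 and −1.14, with adjusted p from 0.0515 to 0.40. Leaving out any 1 of the 6 Fbxl5-deleted libraries left 3 to 5 calls, and of the 9 only those at Col4a6 and at Lama3 18:12555151-12556056 held through each single omission of the 12 libraries.

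The largest rise was in Col4a6, a chain of smooth muscle and some epithelial basement membranes. The region (X:141363324-141363955, 632 bp) lies inside the gene, 110121 bp from its start. It had 3.87, 3.63 and 3.47 in Fbxl5-deleted DDC libraries, against 2.57 and 1.63 in Fbxl5-deleted standard-diet libraries 2 and 3 and not kept in library 1. In floxed controls it had 3.77, 4.40 and 4.32 on DDC, against 1.45 and 1.73 in standard-diet libraries 2 and 3 and not kept in library 1. Every DDC library was above every standard-diet library of both genotypes.

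In the authors' fold enrichment, the same Col4a6 region stood 14.9-fold, 12.6-fold and 10.8-fold over background in Fbxl5-deleted DDC libraries, against 5.99-fold and 2.86-fold in the 2 Fbxl5-deleted standard-diet libraries that kept it. The difference was 1.83 ± 0.28 (adjusted p = 0.00093) in Fbxl5-deleted preparations, and 2.68 ± 0.28 in floxed controls, the value for which the gene was chosen. It passed the test when any single library was left out (1.55 to 2.20), and was 1.08 (adjusted p = 0.103) without Fbxl5-deleted standard-diet libraries 1 and 3. Peaks here differed in width: the widest peak covered 46.7% to 47.3% of the region in Fbxl5-deleted DDC libraries and 55.1% to 96.7% in floxed control DDC libraries. When only peaks that cover at least 50% of the region counted, the value was −0.12.

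Lamc1 had the most called regions, 3 of 24 (12.5%), but also the most tested regions. The share called was also 12.5% at Col4a2 and was 10.5% at Lama3, against 3.17% of all tested regions. Inside the gene, 1:153300159-153301027 (869 bp) had 2.87, 3.12 and 2.26 in Fbxl5-deleted DDC libraries, against 1.43, 1.63 and 1.94 in Fbxl5-deleted standard-diet libraries. The groups did not overlap, and the difference was 1.08 ± 0.27 (adjusted p = 0.0279). It had 3.26, 3.07 and 2.83 in floxed control DDC libraries and was in none of the 3 floxed control standard-diet lists.

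A second Lamc1 region, 14308 bp outside the gene (1:153347094-153347446, 353 bp), had 3.01, 2.88 and 3.02 in Fbxl5-deleted DDC libraries, against 2.49, 1.63 and 1.35 in Fbxl5-deleted standard-diet libraries. The difference was 1.15 ± 0.28 (adjusted p = 0.026), with no overlap. It had 2.46, 2.83 and 2.45 in floxed control DDC libraries and was again in none of the floxed control standard-diet lists. The third (1:153251537-153251833, 297 bp, inside the gene) had 2.71, 2.37 and 2.56 in Fbxl5-deleted DDC libraries, against 1.43 and 1.63 in Fbxl5-deleted standard-diet libraries 1 and 2 and not kept in library 3. Its difference was 1.11 ± 0.26 (adjusted p = 0.0228). Floxed controls overlapped there, at 2.01, 2.02 and 2.61 on DDC and 1.89, 2.08 and 1.52 on the standard diet.

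Within the 24 tested Lamc1 regions the median difference on DDC was 0.26 in Fbxl5-deleted preparations and 0.29 in floxed controls, while Col4a4 had a median of 0.28 in Fbxl5-deleted preparations and 0.06 in floxed controls. There were 7 tested regions kept in all 3 floxed control DDC lists and in none of the 3 standard-diet ones, and all 7 were at Lamc1. Over all regions that pattern held for 3.89%, against 6.36% of the 110, in the comparison on which the genes were chosen. In Fbxl5-deleted preparations the same pattern held for 1 region, at Col4a1, and for none at Lamc1 (0.909% of the 110, against 2.5% of all).

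The Col4a1 and Col4a2 locus had 3 called regions, all inside the genes and far from the shared start. In Col4a2, 8:11396007-11396517 (83202 bp from the start) had 2.41, 2.73 and 2.77 in Fbxl5-deleted DDC libraries and, on the standard diet, 2.02 in library 3 and not kept in libraries 1 and 2. The difference was 1.11 ± 0.26 (adjusted p = 0.0229). The other Col4a2 region, 8:11340297-11340875 (27492 bp from the start), had 2.49, 2.24 and 2.68 in Fbxl5-deleted DDC libraries and, on the standard diet, 1.63 in library 3 and not kept in libraries 1 and 2. Its difference was 1.08 ± 0.26 (adjusted p = 0.0224).

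In Col4a1, 8:11220248-11221773 (91053 bp from the start) was in all 12 lists. It had 3.24, 3.15 and 3.39 in Fbxl5-deleted DDC libraries, against 2.41, 2.53 and 2.10 in Fbxl5-deleted standard-diet libraries. These did not overlap, and the difference was 0.91 ± 0.24 (adjusted p = 0.040). In floxed controls the groups overlapped, at 2.90, 3.89 and 3.60 on DDC and 2.47, 3.01 and 2.47 on the standard diet. Over the 19 tested Col4a1 regions the differences in Fbxl5-deleted preparations ran from −0.78 to 0.91 with a median of 0.04, and over the 16 of Col4a2 from −0.33 to 1.11 with a median of 0.09.

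**Figure D2:**
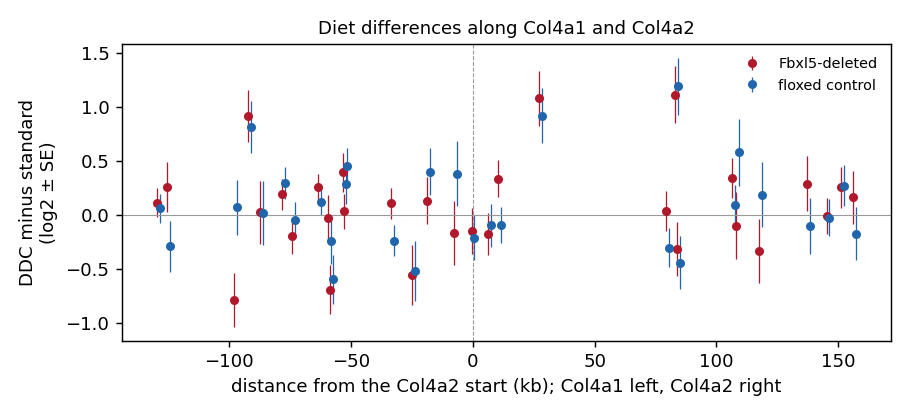
Difference between DDC and standard diet (log2 ± SE, vertical axis) at each tested region of Col4a1 and Col4a2, by distance from the Col4a2 start (kb, horizontal axis), in Fbxl5-deleted preparations and floxed controls. The 3 called regions reach 0.91 to 1.11 in Fbxl5-deleted preparations, while the shared start region is at −0.14.

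Lama3 went the other way. Its region 18:12555151-12556056 (906 bp, inside the gene) had 2.95, 2.92 and 3.13 in Fbxl5-deleted DDC libraries, against 3.86, 4.01 and 3.94 in Fbxl5-deleted standard-diet libraries. The groups stood well apart, with a difference of −0.94 ± 0.16 (adjusted p = 0.00207), and the call held when any single library was left out (−1.0 to −0.90). Floxed controls had 3.25, 3.15 and 2.76 on DDC and 3.55, 3.55 and 3.53 on the standard diet, also without overlap.

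The second Lama3 region, 18:12524368-12525255 (888 bp, inside the gene), had 1.73, 2.24 and 2.68 in Fbxl5-deleted DDC libraries, against 3.03, 3.36 and 3.16 in Fbxl5-deleted standard-diet libraries. The difference was −0.97 ± 0.24 (adjusted p = 0.0333). In floxed controls it was kept in DDC library 3 only, at 1.56, against 3.67, 3.64 and 3.48 on the standard diet, a difference of −2.23 ± 0.24. In the authors' fold enrichment it stood 3.37-fold, 5.14-fold and 6.40-fold over background in Fbxl5-deleted DDC libraries and 6.11-fold, 10.5-fold and 8.0-fold in Fbxl5-deleted standard-diet libraries. Over the 19 tested Lama3 regions the median difference was −0.22 in Fbxl5-deleted preparations, the lowest of the 9 genes, and −0.21 in floxed controls.

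**Figure D3:**
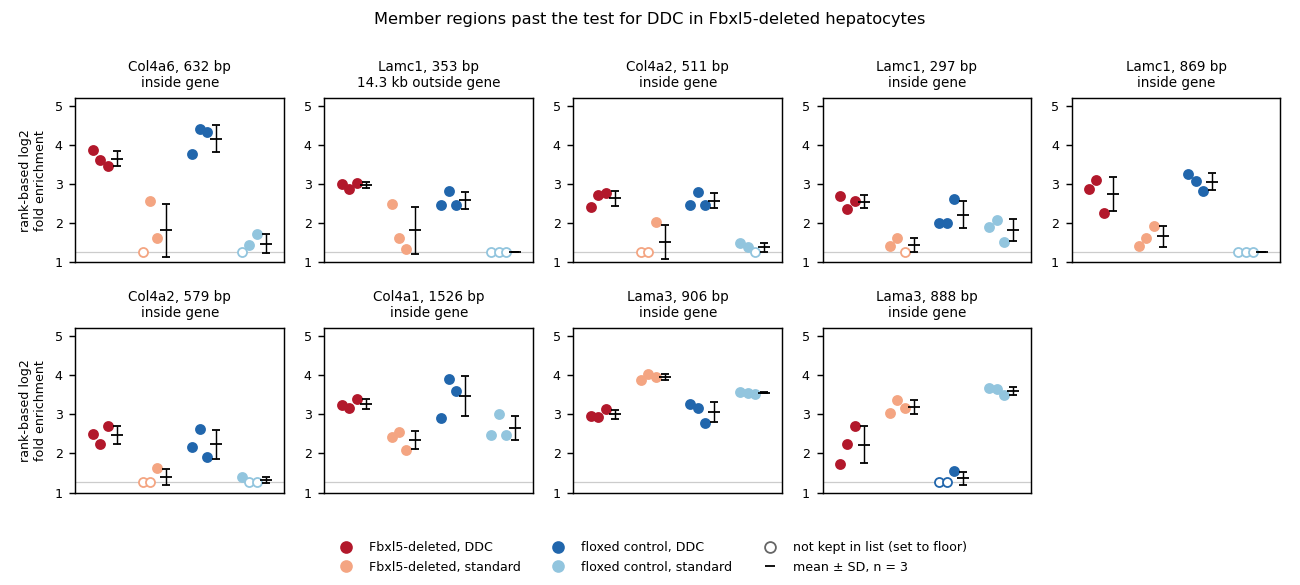
Values (rank-based log2 fold enrichment, vertical axis) in each library at the 9 regions called for DDC in Fbxl5-deleted preparations, with the mean ± SD (n = 3). Open circles at the floor of 1.27 are libraries that did not keep the region; in each panel the Fbxl5-deleted DDC and standard-diet points do not overlap.

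In floxed controls 12 of the 110 regions were called on DDC, 9 higher and 3 lower, where 7.02% of all tested regions were called, 4.66% higher and 2.35% lower. Because the genes were chosen on this comparison, nothing is read from that count, which was 6 without floxed control DDC library 2. The regions not called in Fbxl5-deleted preparations were at Col4a4 (1:82429120-82429673), Lamc1 (1:153350961-153351416), Lama5 (2:180170179-180170570), Col4a6 (X:141152409-141152907) and Lama3 (18:12563528-12564468). The Col4a4 region lies 18746 bp outside the gene in the span of Rhbdd1; it had 3.91, 4.03 and 3.79 in floxed control DDC libraries and 2.41, 3.56 and 2.27 in floxed control standard-diet libraries. In Fbxl5-deleted libraries it had 3.84, 3.84 and 4.02 on DDC and 3.05, 3.04 and 3.64 on the standard diet, a difference of 0.66 ± 0.25 (adjusted p = 0.160). The lower Col4a6 region lies in the span of Atg4a, and its difference of −0.31 ± 0.27 in Fbxl5-deleted preparations did not pass the test (adjusted p = 0.579).

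The diet comparisons of both genotypes contrast different libraries. The fit on all 12 libraries gave both the same estimate of spread at each region, so their calls are not independent. Of the regions called higher, 6 were called in both genotypes, which is 85.7% of the 7 in Fbxl5-deleted preparations and 66.7% of the 9 in floxed controls; over all tested regions these shares were 65.2% and 33.9%. Of those called lower, 1 was called in both, 50% of the 2 and 33.3% of the 3, against 46.1% and 14.5% over all. Because the floxed control calls come from the comparison on which the genes were chosen, nothing is read from these shares. The 14 regions called in either genotype lay at least 14308 bp from a start of the 9 genes (or from either end of Lama3 and Lamc1). None was within 2 kb of one, and 9 of the other 96 tested regions were. Of the 14, 9 were inside the span of one of these genes. Starts of other genes were not counted, and no share over all tested regions is given. The 14 also include calls from the comparison on which the genes were chosen, so nothing is read from these positions.

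**Figure D4:**
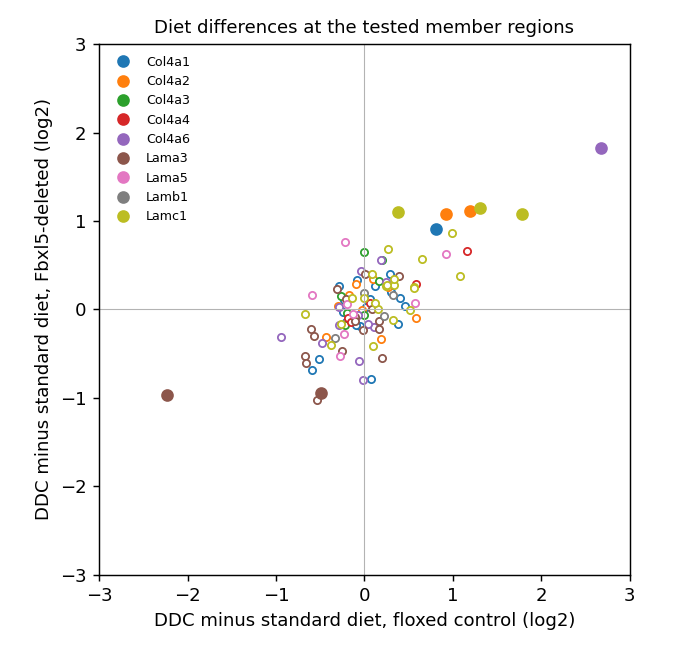
Difference between DDC and standard diet at the 110 tested regions, in Fbxl5-deleted preparations (vertical axis, log2) against floxed controls (horizontal axis, log2), coloured by gene, with filled points for the 9 regions called in Fbxl5-deleted preparations. The Col4a6 region stands at 1.83 and 2.68 and the Lama3 region at −0.97 and −2.23, and most other points lie near 0.

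Deletion of Fbxl5 gave no call at these genes. On DDC, Fbxl5-deleted against floxed control, limma called 0 of the 110 regions and 0 of all tested regions (0%); 4 of the 110 had an unadjusted p under 0.05 (3.64%, against 5.92% of all). Groups did not overlap at 7 regions with Fbxl5-deleted higher (6.36%, against 4.62% of all) and at 3 with it lower (2.73%, against 5.03%). The median difference was 0.03 over the 110 and 0.00 over all. The largest difference was at the Lama3 region 18:12524368-12525255, at 0.85 ± 0.24 (adjusted p = 0.437): its 3 Fbxl5-deleted DDC values were all above the floxed control DDC ones. The floxed control DDC libraries also entered the comparison on which Lama3 was chosen, where this region was low on DDC. A positive difference here was therefore favoured in advance, and nothing is read from it.

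On the standard diet, limma called 0 of the 110 regions and 1 of all tested regions (0.000722%); 11 of the 110 had an unadjusted p under 0.05 (10.0%, against 8.06%). Groups did not overlap at 10 regions with Fbxl5-deleted higher (9.09%, against 4.18% of all) and at 9 with it lower (8.18%, against 5.37%). Fbxl5-deleted libraries 1 and 3 enter here too, and these counts are given only with them. The floxed control standard-diet libraries also entered the comparison on which the genes were chosen. The largest difference was at a Lamc1 region (1:153265662-153265887), kept at 1.43 in Fbxl5-deleted library 1 and in neither of the other two, against 2.25, 1.90 and 2.24 in floxed controls. The difference was −0.81 ± 0.21 (adjusted p = 0.255), and −0.86 (adjusted p = 0.744) without Fbxl5-deleted libraries 1 and 3.

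The difference between the diet effects of the genotypes was called at 0 of the 110 regions and 0 of all (0%), with 6 of the 110 at an unadjusted p under 0.05 (5.45%, against 5.86%). It contains the floxed control diet comparison on which the genes were chosen. For Col4a6 at X:141363324-141363955 it was −0.85 ± 0.40 (adjusted p = 0.851), and for Lama3 at 18:12524368-12525255 it was 1.26 ± 0.34 (adjusted p = 0.846). The smaller differences in Fbxl5-deleted preparations at both regions were thus not shown to differ from those in floxed controls.

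In Fbxl5-deleted preparations the library means over stellate, endothelial and macrophage marker regions did not overlap between diets and were higher on DDC. Those over cholangiocyte and lymphocyte marker regions overlapped. Those over hepatocyte marker regions overlapped only at the edge, with 2.027 the highest on DDC and 2.025 the lowest on the standard diet. In a bulk preparation, more cells of a type and more open chromatin per cell cannot be told apart. The mean value over 58 tested regions of 8 stellate and fibroblast genes ranged over the libraries from 2.22 to 2.26 in Fbxl5-deleted DDC, 1.98 to 2.10 in Fbxl5-deleted standard diet, 2.27 to 2.40 in floxed control DDC and 2.05 to 2.09 in floxed control standard diet. In Fbxl5-deleted preparations 3 of these regions were called higher and 1 lower on DDC (6.90%, against 3.17% of all tested regions). The 71 regions of 8 sinusoidal endothelial genes ranged from 2.39 to 2.44 in Fbxl5-deleted DDC and 2.27 to 2.34 in Fbxl5-deleted standard diet, with 2 called higher and 0 lower (2.82%).

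For 6 of 7 macrophage genes (Vsig4 had no tested region) the range over 34 regions was 2.14 to 2.21 in Fbxl5-deleted DDC and 1.94 to 2.07 in Fbxl5-deleted standard diet, with no call in this comparison. Over 7 of 8 cholangiocyte genes (Krt19 had no tested region), 28 regions ranged from 2.32 to 2.38 and 2.27 to 2.41, and lymphocyte genes from 2.59 to 2.63 and 2.59 to 2.80, in Fbxl5-deleted DDC and Fbxl5-deleted standard-diet libraries. Hepatocyte regions ranged from 1.92 to 2.03 and from 2.03 to 2.13. In floxed controls hepatocyte regions were lower on DDC without overlap, at 1.92 to 1.98 against 1.99 to 2.08 on the standard diet. Lymphocyte regions were too, at 2.53 to 2.59 against 2.72 to 2.83. Stellate, endothelial and macrophage regions were higher on DDC without overlap in floxed controls, and cholangiocyte regions overlapped. The 110 regions of the collagen and laminin genes ranged from 2.28 to 2.31 in Fbxl5-deleted DDC, 2.19 to 2.26 in Fbxl5-deleted standard diet, 2.26 to 2.32 in floxed control DDC and 2.20 to 2.24 in floxed control standard diet. The part of these markers in the results above was not tested.

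Among 43 other basement membrane genes with 491 tested regions, 16 regions were called higher and 3 lower on DDC in Fbxl5-deleted preparations (3.87%, against 3.17% of all regions). Without Fbxl5-deleted standard-diet libraries 1 and 3 these were 3 higher and 2 lower (1.02%, against 0.853%). Of 72 regions of other collagen IV and laminin chain genes, 5 rose and 1 fell (8.33%, against 3.17% of all regions). These calls use Fbxl5-deleted standard-diet libraries 1 and 3, which stood apart. Without both, fewer of the 72 were called, as over all regions, and their median difference was 0.04 in place of 0.07. The largest rises were at Lamb3 (1.55 ± 0.25, adjusted p = 0.00133) and at Lama2 (1.47 ± 0.32, adjusted p = 0.0138). Lamb3 encodes the beta chain that joins the Lama3 product in epithelial laminin, and Lama2 the alpha chain of muscle laminin. Lamb3 also held the region that fell (−0.94 ± 0.26, adjusted p = 0.0483). Of 221 regions of linkers, proteoglycans and other matrix genes, 6 rose and 2 fell (3.62%, near the 3.17% of all regions). The rises included Col18a1 at 1.36 ± 0.25 (adjusted p = 0.00369) and the laminin-binding linker gene Nid1 at 0.69 ± 0.15 (adjusted p = 0.0167). Both falls were at Smoc1 (−1.43 ± 0.18, adjusted p = 0.000144, at the larger).

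Of 109 regions of receptor genes, 2 rose (1.83%, below the 3.17% of all regions). They were at Itga6 (1.82 ± 0.27, adjusted p = 0.000634) and Itga3 (1.36 ± 0.29, adjusted p = 0.0122), which encode integrin alpha chains that bind laminin. Of 89 regions of assembly and turnover genes, 3 rose (3.37%, near the 3.17% of all regions). They were at Loxl2 (1.11 ± 0.29, adjusted p = 0.0426), Pxdn (0.95 ± 0.24, adjusted p = 0.032) and Timp1 (0.86 ± 0.19, adjusted p = 0.0128). PXDN forms the sulfilimine crosslinks of type IV collagen. In both genotype comparisons and in the difference of diet effects, limma called none of the 491, with 38 on the standard diet (7.74%, against 8.06% of all), 34 on DDC (6.92%, against 5.92%) and 36 for the difference of diet effects (7.33%, against 5.86%) at an unadjusted p under 0.05.

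The genes differed in how closely they followed their own average over the 12 libraries. Each gene's value in a library was the mean of its tested regions, and the average profile over the 9 genes ranged from 2.32 to 2.34 in Fbxl5-deleted DDC, 2.19 to 2.28 in Fbxl5-deleted standard diet, 2.28 to 2.36 in floxed control DDC and 2.23 to 2.30 in floxed control standard diet. Col4a4 followed that average most closely (Pearson r = 0.88 over 12 libraries), and Lama3 ran against it (r = −0.67). Of 16392 other protein-coding genes, with a median r of 0.07, the most alike were Dmrt1 (r = 0.94), Kcnj10 (0.94), Rps3 (0.93), Scn8a (0.93) and Ano6 (0.93). These correlations share libraries, diet and depth and are given as a description.

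At the limit of the window, the outermost tested regions inside 20 kb lay 18175 bp from Lamc1, 18746 bp from Col4a4 and 19883 bp from Col4a2, with differences of 0.38, 0.66 and 0.16 on DDC in Fbxl5-deleted preparations. The nearest outside lay 20646 bp from Lamb1, 21777 bp from Lamc1 and 21788 bp from Col4a2, with differences of −0.28, −0.17 and 0.14.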

How the data were processed

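ATAC-seq peak lists of 12 hepatocyte libraries were used, 1 per mouse, so the authors called peaks per sample. The submitters' processing notes name MACS2 (peak calling), Bowtie2, fastp, Picard, SAMtools, deepTools, bedtools and the build mm10. Versions, order, settings and a shift of reads for the transposase are not stated there. The fold enrichment in the deposited lists is a ratio of the peak over the background estimated in the same library. The −log10 p and −log10 q values, the score and the summit position in the deposited lists are the caller's; the lists end at a −log10 p of 1.30, a p-value of 0.05. Depth in reads is unknown, so no counting intervals are given.

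Only chromosomes 1 to 19, X and Y entered, several summits of a peak were merged, and the strongest 137034 per library, the length of the shortest list, were kept, with ties ordered by −log10 p and position. Kept peaks were merged at 1 bp overlap into regions, and those kept in at least 3 libraries were tested. Because ranks are compared, a shift of every region alike would go unseen. limma 3.58.1 in R 4.3.3 (trend and robust settings) was fitted to all 12 libraries with a mean for each of the 4 groups; p-values are two-sided and adjusted by the Benjamini-Hochberg method over all tested regions. The fit was tested on simulated data. Python 3.11.15, pandas 2.3.3, numpy 2.4.6 and matplotlib 3.10.9 were used.

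The genes and lists were chosen with earlier results of these data known. Regions named are, for each gene, the one with the highest mean and the one nearest its start within 2 kb; those called in a comparison, up to the 8 with the largest difference; and the largest difference of each comparison. Called regions past the first 8 (1 in Fbxl5-deleted preparations, at Col4a1, and 4 in floxed controls) were named as well, to account for each call, which was decided after their values were seen. Gene spans come from the GRCm38.p6 table, which gives no exons, so exonic or intronic position is not known here. Alternatives were all deposited peaks, stricter peaks (−log10 q of at least 5), no filter on regions, 50% overlap, a replicate block, a fit on the groups of a comparison alone, a 5 kb window and leaving out libraries. Replicates are separate animals according to the labels, which do not say that replicate numbers pair mice across groups.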

Additional observations from a re-analysis of the deposited data

How the results depend on the processing

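The counts of called regions moved with the processing. For DDC in Fbxl5-deleted preparations the 9 calls became 8 with all deposited peaks, 4 with stricter peaks, 2 with no filter on regions, 3 with 50% overlap, 2 with only the groups of the comparison, 0 without Fbxl5-deleted standard-diet libraries 1 and 3, and 8 within 5 kb. Leaving out 1 library gave 3 (Fbxl5-deleted DDC 1) to 10: 4 without Fbxl5-deleted DDC 2 or 3 or Fbxl5-deleted standard-diet 1 or 2, and 5 without Fbxl5-deleted standard-diet 3. For DDC in floxed controls the 12 became 11, 6, 7, 6, 11, 13 and 7 in the same settings, and 6 (without floxed control DDC 2) to 13 when 1 library was left out. With 50% overlap 1 region, at Col4a6, was called for the deletion on DDC and 1 for the difference of diet effects, against 0 otherwise; its value for DDC in Fbxl5-deleted preparations, −0.12, had the opposite sign. The deletion on the standard diet gave 0 throughout. Tested regions numbered 47 with stricter peaks and 238 with no filter, against 110. With 50% overlap the floxed control differences at Lamc1 (1:153300159-153301027) and Col4a1 (8:11220248-11221773) were 0.00. Apart from Col4a6 under 50% overlap, none of the 24 named differences recomputed under these settings (those called, and the largest of each comparison) changed sign; start regions and uncalled strongest regions were recomputed only without Fbxl5-deleted standard-diet libraries 1 and 3, a check chosen after seeing the data, where the shared Col4a1 and Col4a2 start region came to 0.00 in place of −0.14 for DDC; except where the widths above bear on it, the cause was not tested.

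Deviations of libraries with the same replicate number correlated at −0.024 to 0.056 (18 pairs), and those with different numbers at −0.043 to 0.026 (36 pairs). The highest were between libraries numbered 2, at 0.056 for Fbxl5-deleted on the 2 diets and 0.050 for the 2 genotypes on DDC. Such correlations cannot decide whether replicate numbers pair mice, which the labels do not say. With the replicate block, 9 regions were called for DDC in Fbxl5-deleted preparations and 12 in floxed controls, as without it.

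With 3 mice per group and peak lists without read counts, small differences at weak peaks could not be detected, and absence from a list is not absence of open chromatin.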
